A study of Mus musculus with 7 samples.

Results

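The integrated stress response was followed here through 10 genes in oocytes that lack the mitochondrial fusion protein mitofusin 1. They are the eIF2α kinases *Eif2ak1*, *Eif2ak2*, *Eif2ak3* and *Eif2ak4*, the transcription factors *Atf4*, *Atf5* and *Ddit3*, the pseudokinase *Trib3*, and the phosphatase subunits *Ppp1r15a* and *Ppp1r15b*. They were chosen by name for their place in the pathway, with earlier results of these data known, and all 10 had a row in the deposited table of 22877 genes.

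Cells use this pathway to slow protein synthesis under stress. Each kinase senses a different insult and phosphorylates the translation factor eIF2, which lowers the supply of initiator tRNA to ribosomes. Most mRNAs are then translated less, while *Atf4* and a few other mRNAs with upstream reading frames are translated more. ATF4 and its partner CHOP, the product of *Ddit3*, switch on genes for amino acid supply and redox balance, and PPP1R15A brings phosphatase back to eIF2 and ends the response. Mitochondrial damage is a known trigger of ATF4 in many mammalian cells. The activity of the kinases and the amount of ATF4 protein are set largely after transcription, so the values below describe mRNA and not the state of the proteins.

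RNA was taken from oocytes of secondary follicles of 8-week-old female mice of the C57BL/6J strain, with 5 oocytes pooled in each library. The knockout animals were *Mfn1* fl/fl and carried *Zp3-Cre*, in which the *Zp3* promoter drives Cre in growing oocytes and not in the granulosa cells around them. They are written *Mfn1*-/- here, and WT littermates served as controls. The labels give 4 WT and 3 *Mfn1*-/- libraries, while the design text gives n = 3 for each group. Whether each library came from a separate mouse is not stated in the sources used here.

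For each gene 1 mean of normalized counts was used for each genotype. Single libraries were not analysed here, so the spread between replicates and the depth of each library are unknown and no difference was tested. Every difference below is therefore a description of these means. The log2 ratio is that of the *Mfn1*-/- mean over the WT mean after 0.1 was added to both, which shrinks the difference of genes with low means. A difference was counted as 2-fold at a log2 ratio of at least 1 in either direction. Among 6226 expressed genes, those whose mean over the 7 libraries reached 1, the median log2 ratio was 0.16, so a gene at 0 lay a little below the typical expressed gene. *Mfn1* itself had a mean of 0.0577 in *Mfn1*-/- against 0.616 in WT oocytes, a log2 ratio of -2.18, so it was lower in the libraries labelled as its knockout.

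All 14 oocyte markers had a row, and their means summed to 4491 in *Mfn1*-/- oocytes and 4034 in WT. Of the 14, 10 had a higher mean in *Mfn1*-/- and 4 a lower one, 0 differed 2-fold, and the most abundant, *Ooep*, had 1310 and 1120. Of 15 granulosa cell markers, 13 had a row, and their means summed to 2.41 in *Mfn1*-/- against 1.79 in WT, most of it from *Inha*, at 1.87 and 0.954. Of the 13, 4 had a higher mean in *Mfn1*-/- and 9 a lower one, and *Fshr* had 0.016 and 0.0171. The 5 measured markers of theca and stroma summed to 0.2101 in both genotypes. For erythroid cells, which are rich in the heme-regulated kinase EIF2AK1, 1 of 6 markers had a row, *Hba-a2*, at 0.0285 and 0.0793. Among the 3 measured immune cell markers *Lyz2* and *Cd74* lay at or below 0.0221 in both genotypes. *Cd68*, a lysosomal protein used as a macrophage marker, stood apart at 7.58 in *Mfn1*-/- against 0.672 in WT, and its part in the results below was not tested. In pooled cells, fewer cells of a type and less RNA per cell cannot be told apart.

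The members differed far more from one another than between genotypes. Their means summed to 94.7 in *Mfn1*-/- and to 82.7 in WT. *Atf4* lay at the top and *Atf5* and *Eif2ak2* at the bottom in both genotypes. The smallest step by which WT means exceed 0.01, the lowest value of the table, was 0.00592 for genes of 500 to 1000 exonic bases and 0.001 for genes of 8000 to 16000, taken at the 5th percentile. On log scales this step fell with length with a slope of -0.67, less steeply than full division by length would give. Whether the deposited values are scaled by length is not stated in the sources used here, so ratios of levels between genes below hold on the deposited scale only and may carry a part of gene length.

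**Figure D1:**
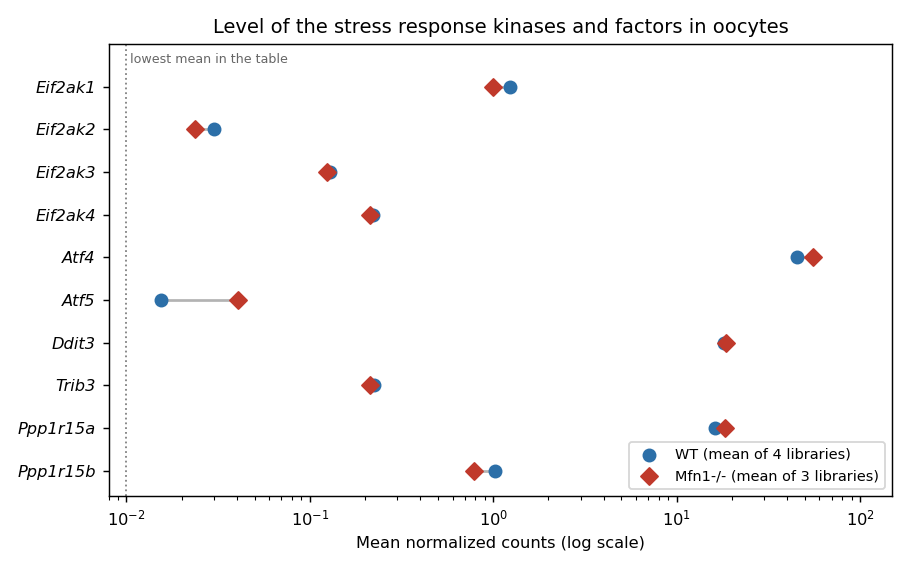
Mean normalized counts of the 10 members on a log axis, with a circle for the mean of 4 WT libraries and a diamond for the mean of 3 Mfn1-/- libraries. No error bars are drawn because single libraries were not used. The symbols lie close together for every gene but *Atf5*, which has 0.0405 in Mfn1-/- and 0.0155 in WT near the lowest mean of the table.

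None of the 10 members differed 2-fold between genotypes at a pseudocount of 0.1. With no pseudocount 1 was 2-fold higher, *Atf5*, and so were 12.8% of all genes, while 8.35% were 2-fold lower. At a pseudocount of 0.1, 4.89% of all genes in the table were 2-fold higher and 2.76% were 2-fold lower in *Mfn1*-/- oocytes. Of the expressed genes 5.49% were higher and 3.24% lower. With shares of that size a list of 10 genes with 0 past the threshold is close to what the table holds at large. The added 0.1 exceeds both means of *Eif2ak2* and of *Atf5*. Neither gene could therefore be counted as 2-fold lower, and either would need a much larger rise to be counted as higher. The median log2 ratio of the members was -0.03, beside 0.04 for all genes and 0.16 for expressed genes. The range ran from -0.34 for *Ppp1r15b* to 0.28 for *Atf4*. Of the 10, 4 had a higher mean in *Mfn1*-/- and 6 a lower one, and after subtraction of the median of expressed genes 3 lay above 0 and 7 below.

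The 4 kinases are the sensors of the pathway. EIF2AK1 responds to heme shortage and to mitochondrial distress, EIF2AK2 to double-stranded RNA, EIF2AK3 to unfolded protein in the endoplasmic reticulum, and EIF2AK4 to uncharged tRNA. All 4 had a slightly lower mean in *Mfn1*-/- oocytes, and together they summed to 1.36 in *Mfn1*-/- against 1.62 in WT. The range of their log2 ratios was -0.29 to -0.03. *Eif2ak1* accounted for 73.4% of that sum in *Mfn1*-/- against 76.6% in WT.

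*Eif2ak1* (chromosome 5 of GRCm38, 143817788 to 143904251) had a mean of 0.996 in *Mfn1*-/- against 1.24 in WT oocytes. The *Mfn1*-/- mean was 0.803 times the WT mean, a log2 ratio of -0.29. Among the 3581 genes whose mean lay within 2-fold of its own, 79.7% had a higher log2 ratio. It lay below the 25th to 75th percentile of these genes, which ran from -0.20 to 0.47. *Eif2ak1* was 4.65 times as abundant as *Eif2ak4* in *Mfn1*-/- and 5.64 times in WT, and 8.03 and 9.61 times as abundant as *Eif2ak3*. The exons of *Eif2ak1* share 487 bases, 8.59% of their length, with *Aimp2* on the opposite strand. *Aimp2*, a scaffold protein of the tRNA synthetase complex, had means of 19.2 and 17.2. The Smart-Seq2 and Nextera XT chemistry does not mark the strand, so reads of that stretch cannot be told apart, and their part in the level of *Eif2ak1* was not tested.

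The other kinases had means under 0.25. *Eif2ak4*, which lies on chromosome 2 (118388618 to 118475234), had 0.214 in *Mfn1*-/- against 0.22 in WT, a log2 ratio of -0.03. *Eif2ak3*, which lies on chromosome 6 (70844515 to 70905245), had 0.124 and 0.129, also -0.03. These were differences of a few percent, and 56.4% of genes of like level had a higher log2 ratio in either case. *Eif2ak4* was 1.73 times as abundant as *Eif2ak3* in *Mfn1*-/- and 1.71 times in WT, so their order was the same in both genotypes. *Eif2ak2* (chromosome 17, 78852564 to 78882573) had 0.0237 and 0.0299, a log2 ratio of -0.07, and 80.6% of all genes had a higher mean. At that level its ratio of means, 0.793, rests on values close to the lowest of the table. *Eif2ak1* was 42.0 times as abundant as *Eif2ak2* in *Mfn1*-/- and 41.5 times in WT. *Eif2ak3* shares 485 exonic bases with the unclassified gene *Gm43292* on the opposite strand, whose means were 0.01 and 0.0209.

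*Atf4* encodes the factor through which the kinases act on transcription, and was the most abundant member (chromosome 15, 80255184 to 80257541). It averaged 55.4 in *Mfn1*-/- against 45.5 in WT oocytes, 1.22 times as high, with a log2 ratio of 0.28. Only 2.26% of all genes had a higher mean. Of the 707 genes of like level, 35.6% had a higher log2 ratio, which puts *Atf4* inside their 25th to 75th percentile of -0.03 to 0.38. After subtraction of the median of expressed genes its value was 0.12. No other gene of the annotation shared 75 bases with it at 95% identity or more.

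*Ddit3*, which encodes CHOP, lay near 18 in both genotypes (chromosome 10, 127290774 to 127296288). It averaged 18.6 in *Mfn1*-/- against 18.2 in WT, 1.02 times as high. The log2 ratio was 0.03, and it turned to -0.13 when the median of expressed genes was subtracted and to -0.10 when the means of both genotypes were scaled to the same sum. *Atf4* was 2.98 times as abundant as *Ddit3* in *Mfn1*-/- and 2.50 times in WT. GENCODE M21 gives the name *Ddit3* to an additional gene that lies wholly within the first, on the same strand and 105 exonic bases long, and the table has 1 row of that name. *Mars*, on the opposite strand, shares 68 bases with it and had means of 1.15 and 0.673.

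*Trib3* encodes a pseudokinase that is a well known target of ATF4 and CHOP together (chromosome 2, 152337422 to 152344032). It had a mean of 0.213 in *Mfn1*-/- against 0.224 in WT oocytes, a log2 ratio of -0.05, and 58.6% of genes of like level had a higher one. *Ddit3* was 87.3 times as abundant as *Trib3* in *Mfn1*-/- and 81.2 times in WT.

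*Trib3* was also the 1 member, of 9 with a RefSeq promoter, that holds the core letters of the element that ATF4 binds with a C/EBP partner. They were searched as TGATGNAA or, on the other strand, TTNCATCA, from 250 bases before to 50 bases after a gene start. Elements outside that window were not looked for. The stretch around the *Trib3* core comes from RefSeq on GRCm38.p6, at chr2:152344011-152344086 on the minus strand. It is shown 5′ to 3′ along the gene with the core in capitals, for comparison with target genes further on.
Trib3: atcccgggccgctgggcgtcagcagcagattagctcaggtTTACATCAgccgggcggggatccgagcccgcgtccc

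*Atf5*, a factor related to ATF4 that guides the mitochondrial unfolded protein response, was the member with the largest ratio of means and the lowest mean over the 7 libraries (chromosome 7, 44812256 to 44816658). It had 0.0405 in *Mfn1*-/- against 0.0155 in WT, a ratio of 2.61. With 0.1 added to both means the log2 ratio was 0.28, with 0.01 added it was 0.99 and with nothing added 1.39. No other member moved as far over these settings. Of 5307 genes of like level 11.5% had a higher log2 ratio. *Atf4* was 1368 times as abundant as *Atf5* in *Mfn1*-/- and 2935 times in WT. Both figures, and the difference between them, rest on means of *Atf5* close to 0.01, the lowest of the table. *Nup62* on the opposite strand shares 82 exonic bases with *Atf5* and had means of 3.95 and 2.77, far above those of *Atf5*. Reads of the 2 genes cannot be told apart in that stretch, and whether they enter the value of *Atf5* was not tested.

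The phosphatase subunits close the loop. PPP1R15A, also called GADD34, is made under stress, and PPP1R15B serves as the constitutive counterpart. *Ppp1r15a* (chromosome 7, 45522916 to 45526268) had a mean of 18.3 in *Mfn1*-/- against 16.1 in WT oocytes, 1.14 times as high, with a log2 ratio of 0.18, or 0.02 relative to the median of expressed genes. It lay at the middle of its peers, as 51.0% of the 1283 genes of like level had a higher log2 ratio. *Ppp1r15b* (chromosome 1, 133131143 to 133139783) had 0.787 and 1.02, 0.772 times as high, with a log2 ratio of -0.34, the lowest of the members. Among its 3855 peers 81.5% had a higher one. It shares 640 exonic bases, 11.4% of its own, with the unclassified gene *Gm26616* on the opposite strand, at 0.0786 and 0.148. *Ppp1r15a* was 23.3 times as abundant as *Ppp1r15b* in *Mfn1*-/- and 15.8 times in WT.

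**Figure D2:**
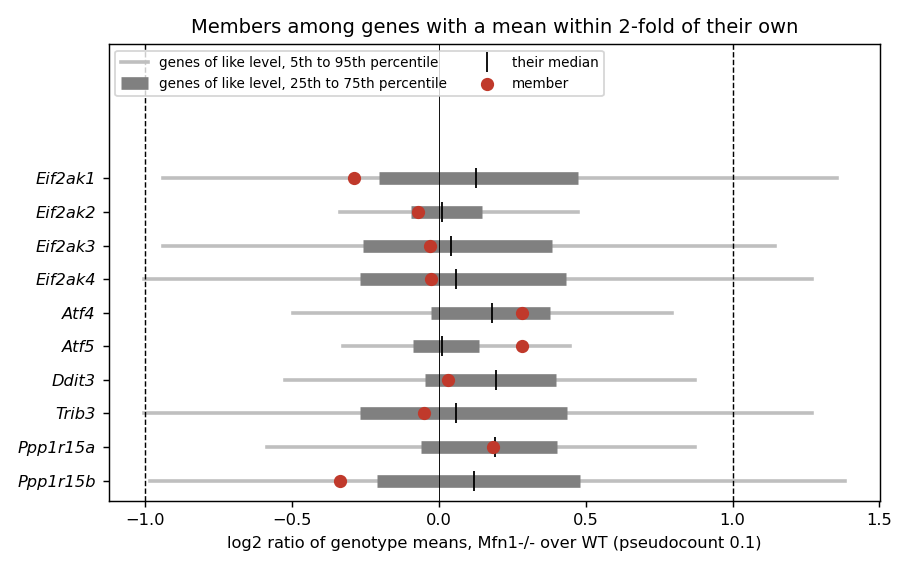
Log2 ratio of each member (red point) beside the genes whose mean lies within 2-fold of its own, with thin bars for their 5th to 95th percentile, thick bars for the 25th to 75th percentile and a tick for the median. Dashed lines mark a 2-fold difference. Every member lies inside the thin bar, and *Eif2ak1*, *Ppp1r15b* and *Atf5* lie outside the thick bar, with *Atf5* above it at 0.28.

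Among the genes for eIF2, its exchange factor and the regulators of the kinases, 1 of those measured differed 2-fold. Of 8 measured subunits of eIF2 and its exchange factor eIF2B, 1 was 2-fold higher and 0 were 2-fold lower, which is 12.5% of this short list beside 4.89% of all genes. That gene was *Eif2b5*, the catalytic subunit of eIF2B, with means of 1.13 in *Mfn1*-/- against 0.443 in WT and a log2 ratio of 1.18. *Eif2b1*, the most abundant of them, had 97.9 and 83.3. The median of the 8 was 0.14. Of 11 regulators of the kinases, among them the mitochondrial protease *Oma1*, its substrate *Dele1* and the EIF2AK4 partner *Gcn1*, 0 were past 2-fold in either direction and the median was 0.14. *Hsp90aa1*, the most abundant of these, had 125 in both genotypes. *Oma1* had 1.19 and 0.966, and *Dele1* 0.0797 and 0.044, and both are given, after their values were seen, because this pair is known to carry a mitochondrial signal to EIF2AK1.

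ATF4 binds DNA together with other factors of the leucine zipper class. Of the 6 measured genes on the list of these partners and related factors, 0 were past 2-fold at a pseudocount of 0.1. Of all genes 4.89% were higher and 2.76% lower. *Cebpb* was the most abundant, with means of 67.6 in *Mfn1*-/- against 37.1 in WT, a log2 ratio of 0.86, and 4.28% of genes of like level had a higher one. *Tmem189* on the opposite strand shares 312 bases with *Cebpb* and had only 0.256 and 0.205. *Atf3*, named after its values were seen, had 0.205 and 0.0658, a log2 ratio of 0.88. *Nfe2l2*, also named afterwards, had 0.59 and 1.23, a log2 ratio of -0.95 that was past 2-fold lower, at -1.11, relative to the median of expressed genes.

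ATF4 and CHOP are known to switch on a set of genes in other cells. Of 41 such genes, chosen with earlier results of these data known, 10 were 2-fold higher and 0 were 2-fold lower in *Mfn1*-/- oocytes, which is 24.4% against the 4.89% of all genes. Their median log2 ratio was 0.39, 35 of them lay above 0 and 6 below. By the mean over the 7 libraries 17 of the 41 reached 1, and 5 of these 17 were 2-fold higher, so low genes made up the other 5. That mean includes the *Mfn1*-/- libraries. *Fgf21*, *Herpud1* and *Eif4ebp1* reached 1 only through them, as their WT means were 0.113, 0.0683 and 0.516. The list was not independent of the data, and no test was made of its share.

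*Fgf21*, a hormone released under metabolic stress, had means of 18.6 in *Mfn1*-/- against 0.113 in WT. *Herpud1*, which takes part in clearing protein from the endoplasmic reticulum, had 3.97 and 0.0683. *Eif4ebp1*, a repressor of cap-dependent translation, had 2.92 and 0.516, a log2 ratio of 2.29. *Chac1*, an enzyme that breaks down glutathione, had 5.01 and 1.25, a log2 ratio of 1.92. For these 4 genes between 0% and 1.20% of genes of like level had a higher log2 ratio. They were named for the largest log2 ratios of the list, and like level was set by a mean that includes their *Mfn1*-/- values. Their ranks therefore follow in part from that choice and give no support of their own. *Slc3a2*, the shared chain of several amino acid transporters, was the most abundant by its mean over the 7 libraries and had 16.6 and 10.9, a log2 ratio of 0.60.

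The other 6 genes past 2-fold were named after their values were seen. *Psat1* of serine synthesis had means of 0.313 in *Mfn1*-/- against 0.021 in WT, and *Psph*, which completes that pathway, had 0.939 and 0.298. *Asns*, asparagine synthetase, had 0.88 and 0.195. The amino acid transporter *Slc38a2* had 0.132 and 0.0123. *Sqstm1*, an autophagy receptor, had 3.10 and 1.24, and the stress sensor *Sesn2* had 0.268 and 0.0813. All but *Sqstm1* had means under 1 in both genotypes. With a pseudocount of 1, 4 genes of the list were past 2-fold higher, beside 0.918% of all genes. *Sqstm1* shares 580 exonic bases with *Mrnip* on the opposite strand, whose means were 4.86 and 5.59, and *Psph* shares 452 with *Cct6a*, at 0.799 and 0.368.

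Within the same list some genes lay near 0 and 6 had a lower mean in *Mfn1*-/-. *Gars*, glycyl-tRNA synthetase, had means of 0.827 in *Mfn1*-/- against 0.815 in WT, and *Ddit4*, an inhibitor of mTORC1, had 0.867 and 0.717. *Gdf15*, a stress hormone often measured beside *Fgf21*, had 0.421 and 0.566, a log2 ratio of -0.35. *Cth* of cysteine synthesis had 0.322 and 0.636, and the cystine carrier *Slc7a11* had 0.0579 and 0.146. These 5 were also named after their values were seen.

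**Figure D3:**
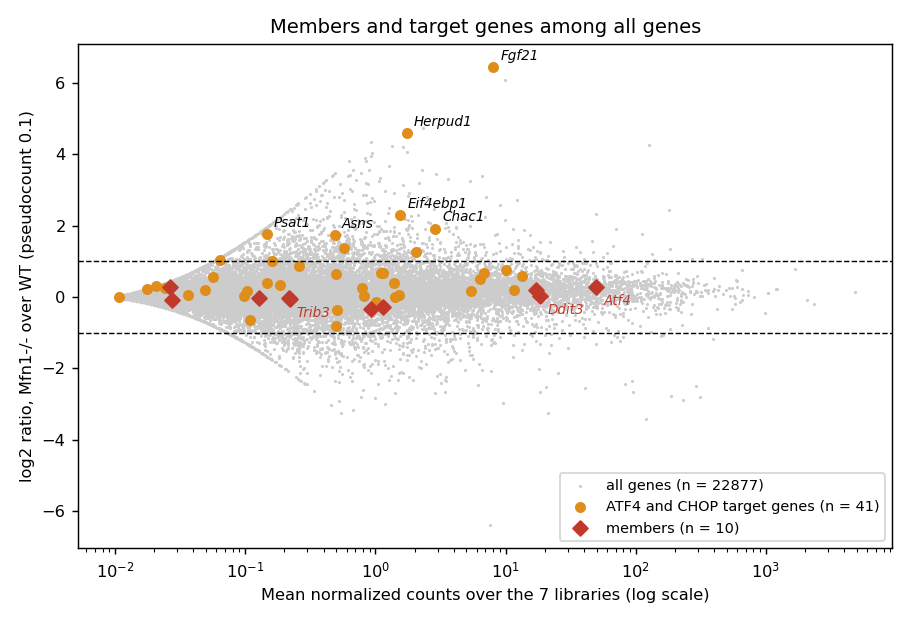
Log2 ratio of genotype means (vertical axis, pseudocount 0.1) against the mean over the 7 libraries (log axis) for all 22877 genes in grey, 41 ATF4 and CHOP target genes in orange and the 10 members as red diamonds. Dashed lines mark a 2-fold difference. Of the target genes 10 lie above the upper line and 0 below the lower one, and the rest lie between the lines. The members also all lie between the lines, from -0.34 to 0.28.

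The unfolded protein response has arms beside EIF2AK3, run by IRE1 and ATF6. Of 24 genes of these arms 2 were 2-fold higher and 0 were 2-fold lower, which is 8.33% of the list beside 4.89% of all genes and 5.49% of expressed genes, and the median was 0.11. *Xbp1*, whose mRNA IRE1 splices, had means of 4.60 in *Mfn1*-/- against 0.998 in WT, a log2 ratio of 2.10. The chaperone *Dnajb9* had 1.81 and 0.653, a log2 ratio of 1.34. *Derl3*, which passes misfolded protein out of the endoplasmic reticulum and was the most abundant by the same measure, had 47 and 48.3. *Hspa5*, the chaperone that holds EIF2AK3 inactive, was counted with the kinase regulators and named after its values were seen, and had 47.6 and 37.7, a log2 ratio of 0.34.

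**Figure D4:**
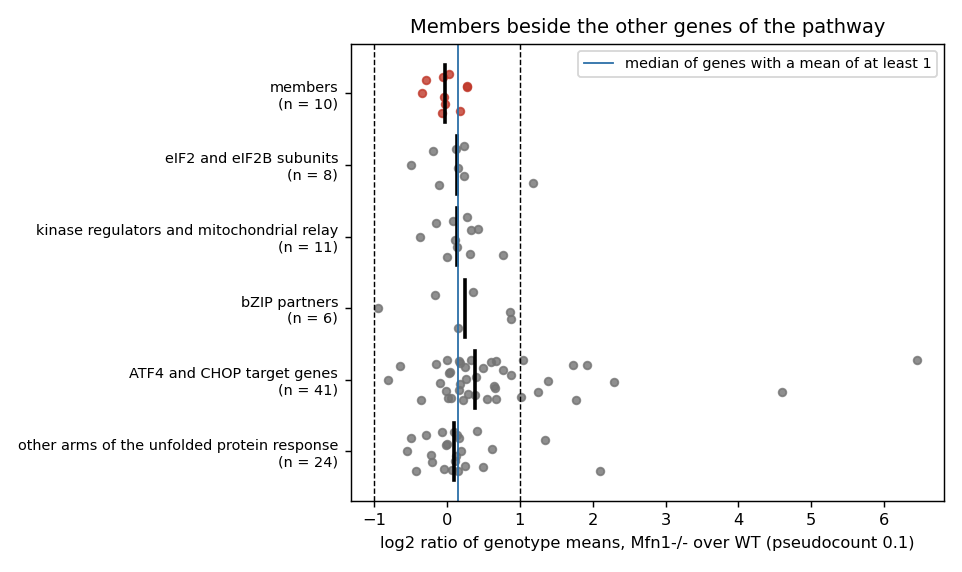
Log2 ratios of the members (red) and of each list of pathway genes (grey), 1 point a gene, with a black bar at the median of each list and a blue line at 0.16, the median of genes with a mean of at least 1. The points are spread vertically only for legibility. The members span -0.34 to 0.28, and the target genes span -0.80 to 6.46.

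The core letters of the ATF4 element, given above for *Trib3*, were looked for in all promoters, in windows from 250 bases before to 50 bases after a gene start. TGATGNAA or TTNCATCA occurs in 3.97% of the 32851 RefSeq promoters and in 3.34% of the 13573 genes of the table that have one. Of the members 9 have a promoter there, and *Ppp1r15b* was not matched. The core was found in 1 of these 9, *Trib3*, and in 10 of the 32 target genes with a promoter. It was found in 2 of 5 genes of the partner list, *Atf3* and *Nupr1*, and in 1 of 7 subunits of eIF2 and eIF2B. It was found in 0 of 7 kinase regulators and in 0 of 20 genes of the other arms. CCACG or its complement CGTGG, letters of the element used by the unfolded protein response, was found in 4 of the 9 members, *Eif2ak1*, *Atf4*, *Atf5* and *Ppp1r15a*. That is 44.4% of them, beside 46.5% of the genes of the table with a promoter. Of all genes with a promoter it is 35.5%, and of all promoters counted singly 32.8%. The same letters were found in 24 of 32 target genes and in 16 of 20 genes of the other arms. They were found in 4 of 7 subunits of eIF2 and eIF2B, 4 of 7 kinase regulators and 3 of 5 partners. None of these shares was tested.

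The stretches around the core are shown for the 4 target genes that hold it and were 2-fold higher, to be read beside that of *Trib3*. Each is 5′ to 3′ along the gene on GRCm38.p6, with the core in capitals. *Chac1* lies at chr2:119351009-119351096 on the plus strand, *Asns* at chr6:7693185-7693272 on the minus strand, *Fgf21* at chr7:45615582-45615669 on the minus strand and *Herpud1* at chr8:94386277-94386364 on the plus strand.
Chac1: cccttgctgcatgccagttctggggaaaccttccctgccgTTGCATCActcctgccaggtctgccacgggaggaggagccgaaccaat
Asns: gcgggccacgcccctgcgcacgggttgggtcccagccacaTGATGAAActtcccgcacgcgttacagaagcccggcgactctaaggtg
Fgf21: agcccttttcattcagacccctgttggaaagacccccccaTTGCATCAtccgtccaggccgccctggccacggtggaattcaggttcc
Herpud1: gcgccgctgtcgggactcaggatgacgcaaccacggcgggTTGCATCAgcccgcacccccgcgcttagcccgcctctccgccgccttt

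*Chac1*, *Fgf21* and *Herpud1* hold TTGCATCA, whose first base lies at -193, -139 and -112 from the RefSeq start. In *Asns* the core reads TGATGAAA, so it lies in the opposite orientation to the other 4, and begins at -23. In *Trib3* it reads TTACATCA and begins 15 bases after the RefSeq start, which lies upstream of the start that GENCODE M21 gives, 152344032. *Trib3* had 0.951 times as high a mean in *Mfn1*-/- as in WT. The other 4 genes were shown because they were 2-fold higher, and had between 4.01 times, for *Chac1*, and 165 times, for *Fgf21*. The other 6 target genes with the core, *Vldlr*, *Slc7a11*, *Pck2*, *Aars*, *Gars* and *Tars*, were not 2-fold higher. Their log2 ratios ran from -0.64 for *Slc7a11* to 0.67 for *Aars*. Over the 10 target genes with the core the median log2 ratio was 0.61, and of the 22 without it 5 were 2-fold higher, with a median of 0.36. The list holds known ATF4 and CHOP targets and was chosen with earlier results of these data known. Neither its share with the core nor this division is independent of that choice, and neither was tested. A match says only that these letters are present, and binding was not measured.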

How the data were processed

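RNA of secondary follicle-enclosed oocytes was sequenced in 4 WT and 3 *Mfn1*-/- libraries (cDNA by Smart-Seq2, Nextera XT libraries). The authors used Cutadapt to remove adapters, the FASTX-Toolkit to discard poor reads and STAR for alignment (GRCm38/mm10), then made gene counts. The annotation version, strand setting and normalization are not given in the sources used here. The deposited values are a signal, the authors' genotype means of normalized counts with their sum over libraries, which equaled 3 knockout plus 4 WT means within 1% in 100% of genes. The table also holds 4 columns of the authors' own comparison (ratio, fold change, p and FDR), which were not used. Values of single libraries were not analysed here (0 such columns were left unused), so no test was made, and the depth of each library and the precision are unknown.

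The log2 ratio was computed with a pseudocount of 0.1, read against 2-fold, and ranked among genes with a mean within 2-fold. The members and lists were chosen with earlier results of these data known. Named genes are the members, *Mfn1*, up to 4 genes past 2-fold in each direction for each list with a mean of at least 1 in either genotype, and the most abundant of each list. Cell type markers named with values, and the other genes marked so in the text, were chosen after their values were seen. Symbols were matched to GENCODE M21 for positions and exon overlaps (21895 genes once), transcripts were compared with blastn 2.17.0, and promoters came from RefSeq. Python 3.11.15, numpy 2.4.6, pandas 2.3.3 and matplotlib 3.10.9 were used, and the code was tested on simulated data. Alternatives were pseudocounts of 0.01 and 1, centring on the median of expressed genes, minimum means of 0.1 and 1 and a 1.5-fold threshold, with no pseudocount and scaling to equal sums added after the data were seen.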

Additional observations from a re-analysis of the deposited data

How the results depend on the processing

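Of the 50 values of single members under 5 alternatives each, 48 kept their side of a 2-fold difference and moved by less than 1.5-fold. The exceptions were those of *Atf5*, whose log2 ratio was 0.99 with a pseudocount of 0.01 and 1.39 with none, in place of 0.28. With no pseudocount 1 member was therefore past 2-fold, and in every other setting, a 1.5-fold threshold included, 0 were. The smaller added constant gives this, since *Atf5* has means near the lowest of the table. Among the ATF4 and CHOP target genes the count past 2-fold higher was 4 with a pseudocount of 1 and 8 after centring or scaling to equal sums, and 13 and 15 with a pseudocount of 0.01 and none, beside 10. Past 2-fold lower there was 1, *Slc7a11*, with a pseudocount of 0.01 or none, and 0 otherwise. Of the partners 1 was past 2-fold higher with a pseudocount of 0.01 or none, and 1 was past 2-fold lower with these and after centring or scaling, beside 0 and 0. Of the kinase regulators 1 was higher with a pseudocount of 0.01 or none. With a pseudocount of 1, 0 subunits of eIF2 and eIF2B and 1 gene of the other arms were higher. The share of all genes past 2-fold higher went from 4.89% to 0.918% with a pseudocount of 1 and to 12.8% with none. It was 10.5% with a pseudocount of 0.01 and 3.88% after scaling to equal sums. The share past 2-fold lower was 0.485% with a pseudocount of 1, 6.65% with 0.01, 8.35% with none and 3.31% after scaling. With centring, 3.58% of all genes were 2-fold higher and 4.0% lower, beside 4.89% and 2.76%.

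No paired analysis was possible because the table gives means of genotypes, and for the same reason leaving out each replicate was not run. The depth of single libraries is unknown, and no difference here can be set against the spread between libraries.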
